A study of Mus musculus with 6 samples.

Results

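The genes described here encode the proteins of the cytosolic ribosome. They were taken by symbol, as the gene probes whose name is Rpl, Rps, Rplp or Rpsa with its usual number and suffix, and 185 of the 55681 gene probes on the array met this rule. The probes all differ in sequence and belong to 79 genes, 48 of the large subunit and 31 of the small subunit, and 18 of these genes have 1 probe. The array names 34836 genes or transcripts in all. RNA came from neonatal cerebellum of wild-type mice, by the sample labels of strain CD1 and aged postnatal day 1 to 3, whereas the study's text names a C57BL/6 background for its wild-type mice and gives slightly younger ages. The study compared 2 fractions of cells, with 3 biological replicates of 50000 cells each and 1 array of a single color (Cy3) per replicate. The A+/G+ fraction carries ACSA-2, an astrocyte antigen encoded by Atp1b2, and GLAST, the glutamate transporter encoded by Slc1a3, whereas the A-/G+ fraction carries GLAST without ACSA-2. By the study's methods, cerebella of either sex were pooled before sorting, A+/G+ cells were enriched with beads against ACSA-2 alone, and A-/G+ cells were enriched with beads against GLAST after depletion of cells carrying ACSA-2, L1CAM or PSA-NCAM (neuronal antigens), CD45 (immune cells) or Ter119 (erythroid cells). Each fraction is therefore a bead-enriched mixture rather than a pure cell type. Values are log2 signals after quantile normalization, differences are A+/G+ minus A-/G+, and a probe was called when its adjusted p from limma (Benjamini-Hochberg over all probes) was at most 0.05.

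Ribosomal proteins are assembled with ribosomal RNA into the small subunit, which reads the mRNA, and the large subunit, which joins the amino acids. Their mRNAs are among the most abundant of growing cells and are known for an oligopyrimidine tract at the start of the transcript (the TOP motif), a C followed by a run of C or T, through which mTOR signaling and Larp1 control their translation as a group. Precursor cells that divide need many new ribosomes, and the assembly of these in the nucleolus requires ribosomal RNA synthesis, modifying enzymes and assembly factors in addition to the proteins themselves.

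The RefSeq promoter table of GRCm38.p6 held 71 starts of 59 of the 79 genes. A C at the listed start followed by at least 4 letters that are each C or T, searched on the strand of the gene only, was found at 13 of these 71 starts (18.3%), compared with 2.51% of all 32851 starts in the table and 0 of 75 starts of mitochondrial ribosomal protein genes. When the tract could begin up to 10 bases to either side, the shares were 56.3% of member starts, 41.3% of mitochondrial ribosomal protein starts and 30.7% of all starts. The starts of 7 members are shown as examples, chosen because they have the tract: Rplp2, Rps6, Rps18 and Rps27, which are described below, and the 3 longest tracts among the other members. Each has 15 bases before and 15 from the start on, and the capitals mark the tract, which begins at the start.
Rplp2, chr7:141447636-141447665, plus strand: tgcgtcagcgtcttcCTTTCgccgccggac
Rps6, chr4:86857353-86857382, minus strand: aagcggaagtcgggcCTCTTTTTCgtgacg
Rps18, chr17:33955651-33955680, minus strand: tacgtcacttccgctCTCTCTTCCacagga
Rps27, chr3:90213634-90213663, minus strand: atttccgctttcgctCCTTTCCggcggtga
Rpl15, chr14:18270972-18271001, minus strand: gtgggagaaagccttCTTCCTTTCCTCTgg
Rpl35, chr2:39005117-39005146, minus strand: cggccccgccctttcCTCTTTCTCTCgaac
Rps10, chr17:27635230-27635259, minus strand: gcgccgcgcacgcccCTTCCTTTCCagcct
A tract of this kind marks a sequence and not a measured start, since no start sites were measured here. The 13 genes with a tract at a listed start had a median difference of 0.048 between the fractions, and the 46 genes with a promoter sequence but no such tract had a median of -0.070. No gene of either set was called on its brightest probe.

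The ribosomal protein mRNAs were bright in both fractions. By the scanner software, 171 of the 185 probes stood well above background on every array, 9 on some arrays and 5 on none, and no member spot was saturated or marked as an outlier. The member probes carried 8.72, 8.99 and 8.70% of the summed signal of all gene probes in A+/G+ (replicates 1 to 3 in order), and 8.60, 9.69 and 9.87% in A-/G+. The 2 sets of arrays overlapped, and the means of 8.80 ± 0.16% and 9.39 ± 0.69% (SD, n = 3) did not differ beyond this spread (exact permutation test, p = 0.4, two-sided). After quantile normalization the median over the member probes was 14.01, 14.06 and 13.98 in A+/G+ and 14.09, 14.15 and 14.15 in A-/G+. Here the groups did not overlap, with a difference of -0.11 (p = 0.1, two-sided exact permutation test, which cannot go lower with 3 arrays against 3).

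**Figure D1:**
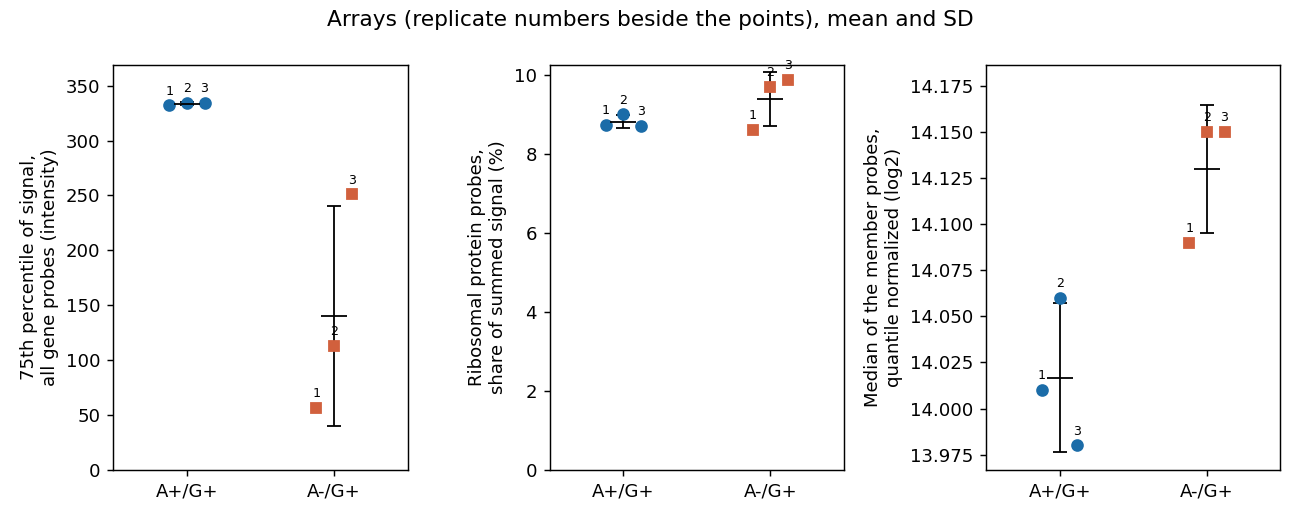
The 3 panels plot, for each array, the 75th percentile of the signal over all gene probes, the share of the summed signal carried by the 185 ribosomal protein probes in percent, and the median quantile normalized log2 signal of these probes; points are arrays with their replicate numbers, and bars are the mean and SD (n = 3). The A-/G+ arrays were dimmer and more spread (56.6, 113 and 251 against 332 to 334), whereas the ribosomal share lay between 8.60 and 9.87% on all 6 arrays; the axis of the right panel does not start at 0.

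The A-/G+ arrays were dimmer over all probes, with a 75th percentile of 56.6, 113 and 251 in replicates 1, 2 and 3 against 332, 334 and 334 in A+/G+, and each fraction had its own slide, whose effect cannot be told apart from that of the fraction. The replicate SD of a member probe was 0.072 at the median in A+/G+ compared with 0.17 for A-/G+, and it was larger in A-/G+ for 82.7% of the member probes, close to the 77.9% of all probes. Among the 171 member probes detected on all arrays, A-/G+ replicate 3 was the highest array for 76, and A-/G+ replicate 1 was the lowest for 55. Fewer cells of a type and less RNA per cell cannot be told apart in these bulk samples. For the target of the sort, Atp1b2 differed by 2.16 (adjusted p = 0.00725, limma), with A+/G+ higher.

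After quantile normalization, the ribosomal protein genes differed little between the fractions. Their probes were also among the brightest of each array. The median member probe ranked at percentile 99.03 (A+/G+) or 99.13 (A-/G+), as the mean of 3 arrays. Quantile normalization gives the brightest probes of all arrays the same set of values, so it can remove a change that they share. Values under another scaling, where the members differed more, are given below. The backgrounds given here and below were not matched to this brightness. Whether equally bright probes of other genes differ as little was not tested. No member probe was called higher in A+/G+, 4 were called higher in A-/G+, and none had medians at least 4-fold apart. These 4 probes are 2.16% of the members, whereas limma called 9.29% of all 55681 probes (4.65% toward A+/G+, 4.64% toward A-/G+). With the 4-fold limit the background was 1.93%. Among the probes well above background on all 6 arrays, 18.9% of 17963 were called, compared with 2.34% of the 171 members detected there. At an unadjusted p under 0.05, limma found 20 member probes, 2 toward A+/G+ and 18 toward A-/G+, or 10.8% against 23.3% of all probes. The per-probe test of the study's methods, after Benjamini-Hochberg adjustment, called 2 member probes, of Rpl13a and Rpl26, with a background of 4.58%. The background was 9% in the authors' table, where 2 member probes were called, 12.7% with normexp background correction (9), 8.14% with limma's trend and robust variance (3) and 3.04% with arrays centred on the member probes (0). Such centring removes by construction any difference that the members share.

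The median difference over the 185 member probes was -0.062 (quartiles -0.16 and 0.069), and over all probes it was -0.043 (quartiles -0.38 and 0.21). A difference within 0.5 on the log2 scale was found for 93.0% of the member probes, for 64.4% of all probes and for 63.5% of the probes detected on all arrays. The 95% interval of the difference lay within 2-fold in either direction for 165 member probes (89.2%), compared with 51.6% of all probes and 63.7% of those detected on all arrays. Neither background was matched for brightness, so these shares do not set the members apart from other bright probes. By gene, with the brightest probe of each, the interval lay within 2-fold for 75 of the 79 genes and within 1.5-fold for 65. The exceptions to the 2-fold limit were Rpl39l, Rpl3l, Rpl5 and Rps21. The large subunit (median difference -0.062, 48 genes) and the small subunit (median -0.0027, 31 genes) had 45 and 30 genes, respectively, inside 2-fold. Rpl10l is counted in the 75, the 65 and the 45, although no array read it well above background. Its interval therefore does not show equal levels. No gene was called on its brightest probe, and the lowest adjusted p was 0.0603 (Rpl23a).

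**Figure D2:**
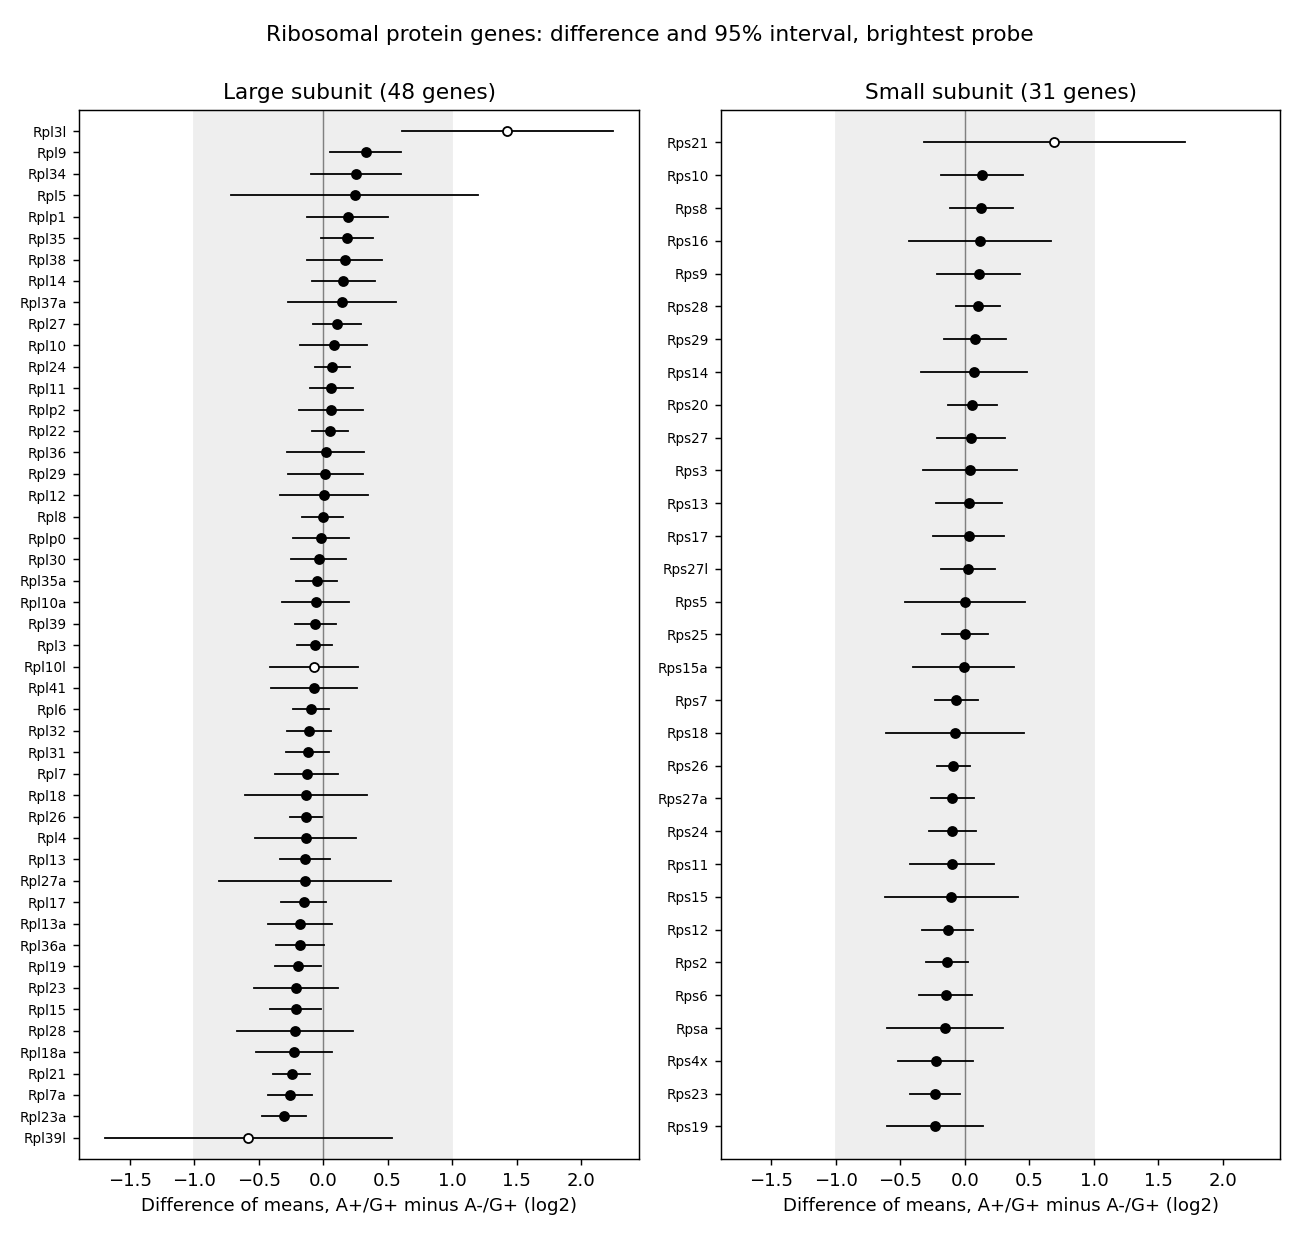
Difference of the mean log2 signals (A+/G+ minus A-/G+) with its 95% interval from limma for the brightest probe of each ribosomal protein gene, large subunit at the left and small subunit at the right, ordered by size; grey marks 2-fold in either direction, and open points were not well above background on all 6 arrays. For 75 of the 79 genes the whole interval lies inside the grey band, and Rpl3l, Rpl39l, Rpl5 and Rps21 reach beyond it. Rpl10l lies inside the band but was read well above background on no array.

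The acidic stalk of the large subunit, which recruits the elongation factors, is formed by Rplp0, Rplp1 and Rplp2. Rplp0 was at 15.79, 15.76 and 15.81 in A+/G+ and 15.66, 15.81 and 15.93 in A-/G+. The 2 sets of values overlapped, and the difference was -0.015 (95% interval -0.23 to 0.20, adjusted p = 0.930, limma). Rplp1 differed by 0.19 (interval -0.12 to 0.50) and Rplp2 by 0.064 (interval -0.18 to 0.31), again with overlapping arrays.

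Rpl3, which lies at the peptidyl transferase center, and Rpl10, which joins the large subunit last and lets it bind the small one, were equally close. Rpl3 was at 15.31, 15.34 and 15.31 in A+/G+ and 15.36, 15.45 and 15.35 in A-/G+, with all A-/G+ arrays just above (difference -0.066, interval -0.20 to 0.072). Rpl10 differed by 0.082 (interval -0.18 to 0.34). Rpl5 and Rpl11 form, with a small ribosomal RNA, the particle that binds Mdm2 when ribosome assembly is disturbed. Rpl11 was at 16.00, 16.07 and 16.09 in A+/G+ and 15.91, 16.00 and 16.06 in A-/G+ (difference 0.065, interval -0.10 to 0.23). Rpl5 was at 12.37, 12.29 and 12.25 in A+/G+ and at 11.24, 12.50 and 12.43 in A-/G+. Its wide interval (-0.72 to 1.20) comes with 1 low array, A-/G+ replicate 1, and without that array its difference was -0.16. Rpl22, an RNA binding protein at the surface of the ribosome, differed by 0.055 (interval -0.086 to 0.20), and Rpl39, a short protein of the exit tunnel, by -0.059 (interval -0.22 to 0.099).

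In the small subunit, Rps6 is the substrate of the S6 kinases and is widely used as a readout of mTOR signaling. Its brightest probe was at 14.51, 14.59 and 14.57 in A+/G+ and 14.63, 14.64 and 14.84 in A-/G+. All A-/G+ arrays were above, but the difference of -0.15 (interval -0.35 to 0.057) did not pass the test (adjusted p = 0.366, limma). Rps19, mutated in Diamond-Blackfan anemia, was at 13.10, 13.38 and 13.25 in A+/G+ and 13.24, 13.51 and 13.69 in A-/G+ (difference -0.23, interval -0.61 to 0.14). Rps18, often taken as a reference gene, differed by -0.079 with a wider interval (-0.61 to 0.45), as its A-/G+ arrays were at 13.74, 13.95 and 14.48. Rps4x, the X-linked copy of Rps4, differed by -0.23 (interval -0.52 to 0.064), and Rps4l was not analysed here. Rpsa, also known as the laminin receptor, differed by -0.15 on its brightest probe (interval -0.61 to 0.30). None of these passed the test.

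Several members have a paralog with a narrower known expression. Rpl10l and Rpl39l, known from the testis, were not well above background on any of the 6 arrays, and their differences are therefore not read here. Rpl3l, known from heart and skeletal muscle, was at 3.66, 3.80 and 4.19 in A+/G+ and 2.13, 2.15 and 3.08 in A-/G+. The scanner software read it well above background once in A+/G+ and never in A-/G+ (1 and 0 arrays), so that its difference is not read either. Rps27l, a target of p53, was detected on all 6 arrays and was at 12.70, 12.63 and 12.58 in A+/G+ and 12.64, 12.71 and 12.49 in A-/G+. The intervals of Rps27l (difference 0.024, -0.18 to 0.23) and of Rps27 (difference 0.048, -0.22 to 0.31) lay within 1.5-fold. The 4 probes of Rps27 are placed on another chromosome than the gene by the array's annotation, as described below.

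In the 4 genes with a called probe, the call never fell on the brightest probe. These probes were looked up after their values were seen. The called probe of Rpl13a, whose protein also restrains translation of inflammatory mRNAs, lies at chr7:52381146-52381205 of mm9. It was at 11.64, 11.71 and 11.71 in A+/G+ and 12.38, 12.12 and 12.35 in A-/G+ (difference -0.60, standard error 0.089, adjusted p = 0.0233, limma). A neighboring probe, at base 758 of the transcript rather than 753, differed by -0.56 with all A-/G+ arrays above as well (interval -0.87 to -0.24, adjusted p = 0.060, limma). By these positions both probes, of 60 bases each, overlap on the transcript, whereas their mm9 coordinates do not. Whether they are separate readings was not determined. The brightest Rpl13a probe, at base 511, differed by -0.18 (interval -0.42 to 0.072). The called probe of Rpl21 (chr5:147647577-147647636) was at 7.37, 7.72 and 7.56 in A+/G+ and 8.61, 8.52 and 8.18 in A-/G+, a difference of -0.89 (adjusted p = 0.0346, limma). The brightest Rpl21 probe differed by -0.24, with all A-/G+ arrays above as well (adjusted p = 0.0654, limma). In Rpsa, the called probe at base 1340 of its transcript (chr9:120040967-120041026) was at 5.23, 5.59 and 5.66 in A+/G+ and 6.29, 6.17 and 6.50 in A-/G+ (difference -0.83, adjusted p = 0.0401, limma). The other 3 probes of Rpsa had overlapping groups or an interval that includes 0, with differences of -0.15, -0.13 and -0.38.

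Rpl23a, which helps to form the docking site at the tunnel exit, has 2 probes that abut on the transcript, shown here because they read neighboring stretches of 1 mRNA. The probe at base 280 (chr11:77995006-77995065 of mm9, minus strand) was called, and the brighter probe at base 340 (chr11:77994946-77995005, minus strand) was not.
Rpl23a, base 280: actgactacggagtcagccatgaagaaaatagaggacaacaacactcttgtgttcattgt
Rpl23a, base 340: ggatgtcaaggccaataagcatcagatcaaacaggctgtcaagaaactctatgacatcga
The probe at base 280 was at 12.34, 12.46 and 12.41 in A+/G+ and 12.74, 12.70 and 12.88 in A-/G+ (difference -0.37, adjusted p = 0.0479, limma). The probe at base 340 was at 13.86, 13.97 and 13.89 in A+/G+ and 14.24, 14.26 and 14.12 in A-/G+ (difference -0.30, adjusted p = 0.0603, limma). Both probes had all A-/G+ arrays above all A+/G+ arrays, and they lie on either side of the threshold with intervals that overlap (-0.56 to -0.18 and -0.47 to -0.13).

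**Figure D3:**
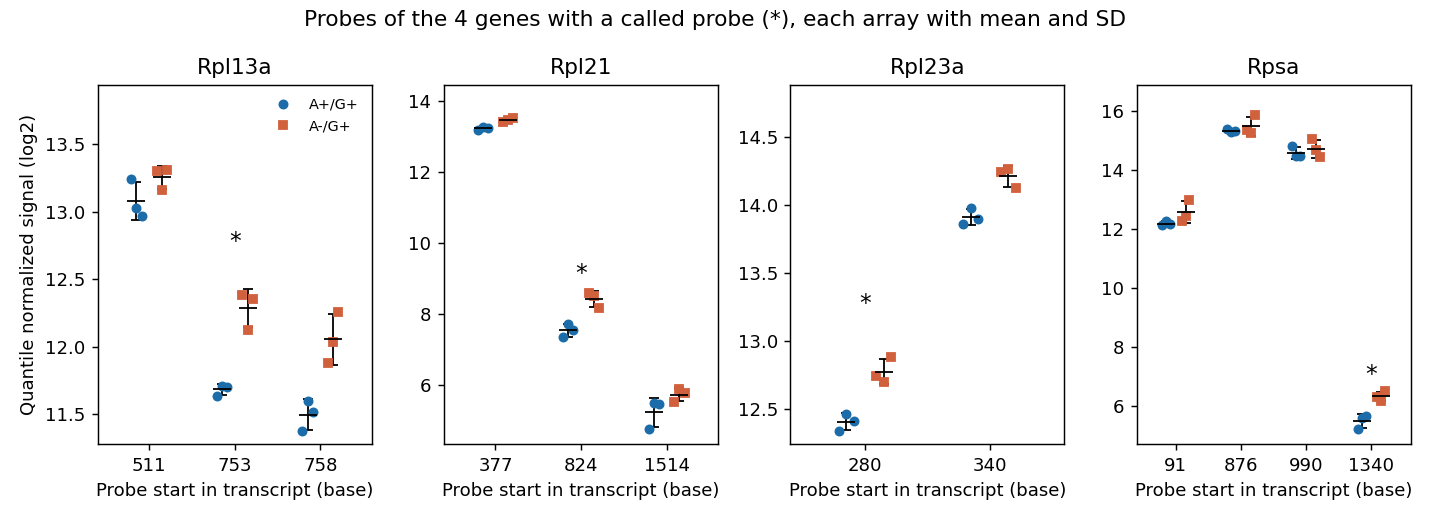
Quantile normalized log2 signal of every probe of Rpl13a, Rpl21, Rpl23a and Rpsa against the base of the transcript at which the probe begins; circles are A+/G+ arrays, squares A-/G+ arrays, bars the mean and SD (n = 3), and the asterisk marks an adjusted p of at most 0.05 (limma). In each gene the called probe is dimmer than the brightest one, which differs by -0.18, -0.24, -0.30 and -0.15, respectively; the vertical axes differ between panels.

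The 4 calls rest on all 6 arrays. With 1 array left out in turn, Rpl13a kept an adjusted p of at most 0.05 in 2 of 6 fits, Rpl21 in 1, Rpl23a in 1 and Rpsa in none, while the differences stayed between -1.01 and -0.32. The array that mattered most for the count was A-/G+ replicate 3. Without it limma called 13 member probes, 2 of them toward A+/G+ (Rpl38 and Rpl3l, the latter hardly detected, as described above) and 11 toward A-/G+, which is 7.03% of the members against 16.2% of all probes. Without any 1 of the A+/G+ arrays no member probe was called, with backgrounds of 2.87, 2.25 and 2.24%, and without A-/G+ replicate 1 or 2 the counts were 1 and 3 (backgrounds 6.91 and 5.84%). The member share of calls was below the background in each of these fits.

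All A+/G+ arrays lay above all A-/G+ arrays for 5 member probes, of Rpl34, Rpl35, Rpl38, Rpl3l and Rpl9 (2.70%, background 12.7%). The reverse held for 36 member probes (19.5%, background 24.3%). Among brightest probes detected on all arrays, that of Rpl9 had the largest difference toward A+/G+. It was at 15.69, 15.79 and 15.71 in A+/G+ and 15.20, 15.46 and 15.53 in A-/G+ (difference 0.33, interval 0.056 to 0.60, adjusted p = 0.144, limma). Rpl35, with its tract of 11 pyrimidines shown above, differed by 0.19 (interval -0.015 to 0.39), and Rpl15, with 13, by -0.21 (interval -0.41 to -0.013).

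The size of the difference over the members depended on the scaling. When the arrays were aligned at their 75th percentile instead of being quantile normalized, this moved the median difference of all probes to -1.02 and that of the members to -0.34, while the probes detected on all arrays had a median of -0.16. The number of member probes with a higher mean in A-/G+ went from 116 to 168 of 185, and 54 member probes changed sign. Over all 55681 probes this number went from 34525 to 43833, and 9482 changed sign. After quantile normalization the 116 members (62.7%) were thus close to the 62% of all probes. Under the shift the 168 members were a larger share than that of all probes. Among probes detected on all arrays the shift gave 158 of 171 members and 11415 of 17963 probes with a higher mean in A-/G+. Of the members, 1 probe was called under the shift (0.541%, background 6.98%, made of 2.2% toward A+/G+ and 4.77% toward A-/G+), a probe of Rpl10l that no array read well above background. The interval lay within 2-fold for 135 member probes, or 73.0% against 20.0% of all probes and 53.5% of those detected on all arrays.

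**Figure D4:**
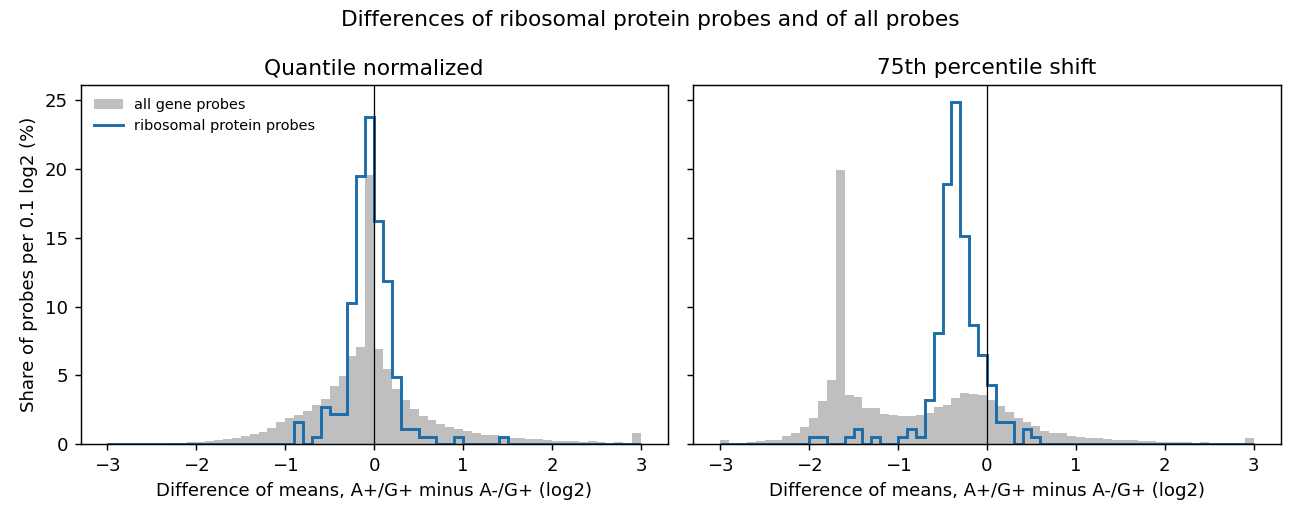
Share of probes in percent per 0.1 on the log2 scale of the difference A+/G+ minus A-/G+, for the 185 ribosomal protein probes (blue line) and all 55681 probes (grey), after quantile normalization (left) and after the 75th percentile shift (right); values beyond 3 are set into the outermost bins. The members form a narrow peak around a median of -0.062 at the left and -0.34 at the right, while all probes are spread more widely apart from 1 tall bin in each panel.

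Genes around the ribosome were read on the brightest probe of each, beside the same background of 9.29%. Of 6 related genes outside the naming rule, such as Fau and Gnb2l1 (the gene of the scaffold protein Rack1), none was called by limma (median difference 0.064). Of 12 elongation factors and other abundant TOP mRNAs, none was called (median -0.11): Eef1a1, which brings transfer RNA to the ribosome, differed by -0.0099, and Tpt1 by 0.14. Of 12 measured subunits of eIF3, the scaffold of initiation, 1 was called, Eif3b, which was at 10.61, 10.67 and 10.63 in A+/G+ and 10.99, 11.01 and 11.24 in A-/G+ (difference -0.44, adjusted p = 0.0453, limma). Of 19 other initiation factors, 1 was called, the helicase Eif4a1 (difference -0.30, adjusted p = 0.0476, limma). Both were higher in A-/G+, and the median differences of their lists were -0.033 and 0.031. Neither was called under the 75th percentile shift, and with 1 array left out in turn Eif3b was called in 1 of 6 fits (without A-/G+ replicate 3) and Eif4a1 in none.

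The ribosome assembly list had more calls, in number near the share of all probes detected on every array (18.9%, both directions together). Of its 34 genes, 6 were called, each higher in A-/G+. Of the 17963 probes detected on every array, 2130 were called in that direction, a smaller share. The list had -0.24 as its median difference, compared with -0.12 for all probes detected on every array. A higher mean in A-/G+ was found for 30 of the 34 genes, a larger share than the 60.5% of those probes. Fbl, the methyltransferase of ribosomal RNA, was at 10.58, 10.68 and 10.74 in A+/G+ and 12.08, 11.90 and 11.54 in A-/G+ (difference -1.18, adjusted p = 0.0183, limma). Rrp9, a protein of the U3 particle that processes the precursor RNA, differed by -0.73 (adjusted p = 0.0390, limma). Tsr1, an assembly factor of the small subunit, differed by -0.70 (adjusted p = 0.0118, limma), and Polr1b, a core subunit of RNA polymerase I, by -0.65 (adjusted p = 0.0169, limma). The groups did not overlap for any of these 4 genes. Npm1 and Sbds, by contrast, differed by -0.014 (interval -0.28 to 0.25) and -0.028 (interval -0.39 to 0.33). The summed quantile normalized signal of the list was 56090 to 59520 in A+/G+ and 71580 to 78050 in A-/G+. That of the 79 ribosomal protein genes was 2515000 to 2631000 and 2419000 to 2769000. These ranges overlap, but quantile normalization gives the brightest probes of all arrays the same set of values. The ribosomal sums therefore cannot show a change shared by these genes, and the sums of the 2 lists are not compared.

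Under the 75th percentile shift, 1 assembly gene was called (Fbl), and the median of the list, -0.31, came close to that of the ribosomal protein genes, -0.38. With 1 array left out, the count of called assembly genes was 0 without A+/G+ replicate 1, 1 without A+/G+ replicate 2 or 3, 6, 2 and 8 without A-/G+ replicates 1, 2 and 3, respectively. A difference between the assembly list and the ribosomal proteins was not tested.

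Of 13 regulators of ribosome production and TOP translation, 2 were called, both higher in A-/G+. The backgrounds, both directions together, were 9.29% of all probes and 18.9% of those detected on every array. Mycn, a transcription factor known to drive ribosome production in neural precursors, was at 9.74, 9.85 and 9.76 in A+/G+ and 10.30, 10.53 and 10.47 in A-/G+ (difference -0.65, adjusted p = 0.0162, limma). Eif4ebp2, the main inhibitor of the cap-binding factor eIF4E in brain, differed by -0.53 (adjusted p = 0.0237, limma). Larp1, which binds the TOP motif, differed by 0.019 (interval -0.23 to 0.27), Mtor by 0.22 (interval -0.017 to 0.45) and Rptor by 0.043 (interval -0.18 to 0.26). Neither Mycn nor Eif4ebp2 was called under the 75th percentile shift, where their differences were -0.68 and -0.57, nor without any 1 of the A+/G+ arrays.

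The proteins of the mitochondrial ribosome, encoded in the nucleus by other genes, were read in the same way, beside the same backgrounds (9.29% and 18.9%). Of 76 genes, 2 were called, both higher in A-/G+: Mrpl36 (difference -0.49, adjusted p = 0.0323, limma) and Mrpl49 (-0.34, adjusted p = 0.0389, limma). Neither was called under the 75th percentile shift, without any 1 of the A+/G+ arrays or without A-/G+ replicate 2, and without A-/G+ replicate 3 there were 3 calls toward A+/G+ (Mrpl54, Mrps18a and Mrps18c) and 2 toward A-/G+ (Mrpl35 and Mrpl49). The median difference was 0.0053, and the interval lay within 2-fold for 70 of the 76.

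**Figure D5:**
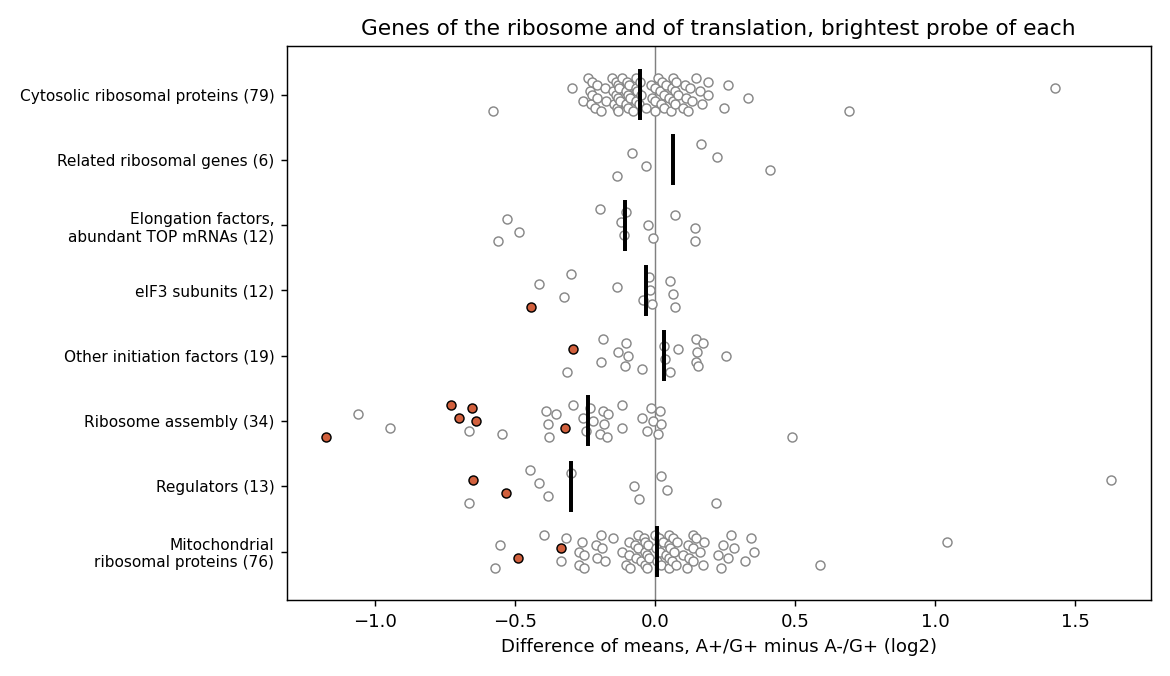
Difference of the mean log2 signals (A+/G+ minus A-/G+) for the brightest probe of each gene in the ribosomal and translation lists, with the number of genes in parentheses; filled points have an adjusted p of at most 0.05 (limma) and black bars are list medians. The 79 cytosolic ribosomal protein genes hold no filled point, and the ribosome assembly list holds 6, all at the left (higher in A-/G+); the vertical scatter within a list has no meaning.

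Markers of other cell types that the fractions could hold were read beside these lists, and neuronal, immune and erythroid cells were depleted from A-/G+ only. Over all probes, the share called by limma was 9.29%, and 16.2% without A-/G+ replicate 3. Of 5 markers of the oligodendrocyte lineage, 3 were called higher in A+/G+ (Olig1 by 4.43, Olig2 by 4.23 and Pdgfra by 1.70), with a summed signal of 12590 to 15300 in A+/G+ and 1117 to 2242 in A-/G+. Of 4 endothelial markers, 1 was called higher in A+/G+ (Cdh5 by 1.80), with sums of 6541 to 9823 and 1255 to 6788. None of 8 neuronal, 4 erythroid and 5 microglial markers was called by limma, but without A-/G+ replicate 3 it called 4, 3 and 1 of them, respectively, all higher in A+/G+. Their sums were 8810 to 15370 against 3726 to 10620 for neurons, 8800 to 16090 against 2542 to 7790 for erythroid cells and 1190 to 2067 against 1458 to 3805 for microglia. The 1 microglial call without A-/G+ replicate 3 was Ptprc, the gene of the CD45 antigen. No array read Ptprc well above background, so its difference is not read. In that fit 3 of the 5 microglial markers had a higher mean in A-/G+. Of 8 astroglial markers, 3 were called higher in A+/G+ (Atp1b2, Gfap and S100b) and 1, Aldh1l1, higher in A-/G+ (difference -0.64, adjusted p = 0.0452, limma). Atp1b2 encodes the antigen used for the sort, so its call follows from the design. It was the only astroglial marker called by the methods' test and without any 1 of the A+/G+ arrays. The part of these cells in the values of the ribosomal and assembly genes was not tested.

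Probes of ribosomal protein genes can also read near-identical copies. The RefSeq table lists 321 pseudogene symbols of cytosolic ribosomal proteins, and 12 member probes are placed by the array's annotation on another chromosome than their gene or on none. These are probes of Rps27, Rps29, Rpl13, Rps4x, Rpl36 and Rps3. Without them the median difference was -0.068 and the same 4 probes were called.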

How the data were processed

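Scanner output of 6 Agilent arrays was used. The authors deposited the background-corrected intensity of each spot, made with Feature Extraction 10.7.3.1, and a table of quantile normalized log2 values, which served as an alternative. Probe coordinates (mm9) come with the array. Intensities were taken to log2, control and outlier spots were left out, arrays were quantile normalized as in the study's methods, and replicate spots of a probe were averaged. A comparison of the fractions was fitted with limma 3.58.1 in R 4.3.3 over all 55681 probes, with Benjamini-Hochberg adjustment and no filter on dim probes. A gene is read on its probe with the highest mean signal. The members and gene lists were chosen with earlier results of these data known. Named are fixed members, members called on the brightest probe (none) and up to 4 called genes per list. The fit was tested on simulated data. Promoter windows are from RefSeq (GRCm38.p6), whose gene table held all 79 symbols. The number of arrays limits the precision. Alternatives were the 75th percentile shift, centring on the member probes, normexp (offset of 50), a filter on dim probes, the authors' table, outlier spots kept, saturated probes left out, the methods' test, limma with trend and robust variance, a 2-fold limit, gene means, the replicate block, each array left out and, chosen after seeing the data, probes on another chromosome left out.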

Additional observations from a re-analysis of the deposited data

How the results depend on the processing

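The count of member probes that passed both the 4-fold limit and the limit on the adjusted p was 0 under every alternative, including a limit of 2-fold. With the limit of 2-fold, 3137 of all probes passed both. Medians at least 2-fold apart, without regard to p, were found for 2 member probes (1.08%, against 15.9% of all probes), neither detected on all arrays. The count with an adjusted p of at most 0.05, 4 as reported, was 1 with the 75th percentile shift, 0 with arrays centred on the median of the member probes, 9 with normexp background correction, 2 in the authors' table, 2 by the methods' test, 2 of 79 genes when all probes of a gene were averaged, and 0 to 13 with 1 array left out. It stayed at 3 or 4 with limma's trend and robust variance, the filter on dim probes and outlier spots kept, but not with the same probes: the trend and robust variance lost Rpsa (adjusted p = 0.0756) and Rpl23a (0.0504) and added the Rpl13a probe at base 758, and the filter lost Rpl23a (0.0628). Over all probes, 6581 were called with the filter on dim probes and 5188 with outlier spots kept. When all probes of a gene were averaged, 3847 genes or transcripts were called in all. No probe was saturated, so leaving saturated probes out changed nothing. The median difference of -0.062 became -0.34 with the 75th percentile shift and 0.043 with arrays centred on the member probes, and ranged from -0.085 to -0.0053 with 1 array left out. Centring on the member probes sets their median difference near 0 by construction. It also removes any difference they share from the count of calls, so it does not test either result. The cause of the other changes was not tested. Whether replicate numbers pair the samples could not be settled with 3 arrays a fraction. The deviations of same-numbered arrays correlated at 0.20, 0.11 and -0.11 over 17963 probes, and those of other pairs between -0.24 and 0.17. With the replicate block limma called 0 member probes and 0 of all probes, at a median difference of -0.062. No named member reversed its direction with a call under any alternative. With 3 arrays a fraction, members not well above background (5 probes on no array) have no readable difference.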

Other observations

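Among the 59 ribosomal protein genes with several probes well above background on all 6 arrays, the dimmest probe had the lower difference than the brightest one in 39 genes after quantile normalization and in 21 after the 75th percentile shift. For 49 genes with several RefSeq probes detected on all arrays, the differences of the probes of 1 gene spanned 0.16 at the median and at most 0.73 (Rpl14), and the probe furthest along the transcript had the lower difference in 23. In Rpl14, 2 overlapping probes differed by 0.16 and 0.23, and a probe further along the transcript by -0.58, none with a call. In Rps6, the probe at base 1274 differed by 0.43 with an A-/G+ SD of 0.66, whereas the other probes differed by -0.15 and -0.13.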
